A study of Mus musculus with 12 samples.

Results

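Serine/threonine phosphatase subunits were examined in sorted kidney tubules of the mouse. The set holds every gene on the array whose name begins with Ppp1 to Ppp6 or Ppm1, without the catalytic subunits of protein phosphatase 1 (Ppp1ca, Ppp1cb and Ppp1cc) and without its inhibitors Ppp1r1a, Ppp1r1b and Ppp1r2. This gave 63 genes, carried by 134 probes, of 27599 gene names on the array. Of the 63 genes, 59 were tested because a probe rose well above background on 4 or more of the 12 arrays, as did 17072 genes in all. The other 4 were PP1 regulators. Ppp1r1c, Ppp1r3b and Ppp1r3g were not well above background on any array, and Ppp1r3a was so on 1. A further 43 probes now carry a symbol of these families under older file names (Saps1 to Saps3, Smek1 and Smek2 and others) and were kept out of the set.

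Kidneys of 4 mice gave 3 fractions each, so that every fraction has n = 4. Mice 1 and 3 were female, and mice 2 and 4 were male. A COPAS sorter, a flow instrument for large particles, split suspended renal tubules into those with green fluorescence (EGFP+, the distal convoluted tubules or DCT), those without it (EGFP-) and the total suspension (ALL). The sources used here do not give the driver of EGFP or the strain and age of the mice. Total RNA was labelled with Cy3 and hybridised to 1-colour Agilent arrays. Levels are given as log2 of the processed signal relative to the array's 75th percentile, so that 0 is the 75th percentile of that array. The 75th percentile ran from 922 to 2270 over the arrays, and 53.9% to 65.6% of the probes were well above background. Errors of levels are SD over mice, errors of differences are SE of a limma fit with 1 coefficient per fraction, and adjusted p-values are Benjamini-Hochberg values over all tested genes, called at 0.05. Precision is limited by the number of mice, and the main fit does not use the pairing of fractions by mouse.

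The DCT markers differed between the fractions as the labels say, while thick ascending limb and intercalated cell markers were not all lower in EGFP+. All 5 DCT markers were higher in EGFP+ than in EGFP- tubules, among them Slc12a3, the thiazide-sensitive sodium chloride cotransporter (log2 difference 8.37). All 8 proximal tubule, 6 podocyte, 7 endothelial and 4 principal cell markers were lower, with list medians of -4.93, -6.62, -3.34 and -3.66, and 6 of 7 smooth muscle and mesangial markers were lower, with a median of -3.79. Of the thick ascending limb markers 4 were higher and 1 was lower, with a median of 1.58. Of the intercalated cell markers 1 was higher, 1 lower and 2 did not pass, with a median of -0.09. A higher level in EGFP+ is therefore not by itself particular to the DCT. Of the leukocyte markers 5 were lower and 1 was higher, and the 3 tested erythroid markers were lower. The EGFP- and ALL fractions hold many cell types, and a lower level in bulk tubules cannot tell fewer expressing cells from less RNA per cell.

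Serine/threonine phosphatases remove phosphate that kinases add, and a small number of catalytic subunits gains its specificity from many partner subunits. PP2A is built from a scaffold, a catalytic subunit and an exchangeable B subunit, PP1 is steered by a large group of targeting and inhibitor proteins, calcineurin is activated by calcium and calmodulin, and the metal-dependent PPM enzymes act as single chains. In the DCT the sodium chloride cotransporter is switched on by phosphorylation through WNK and SPAK kinases, and phosphatases reverse that step.

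Phosphatase subunits moved in both directions in the DCT fraction. In EGFP+ against EGFP- tubules 20 of the 59 tested members were higher, 8 were lower and 31 did not pass the test, with a median log2 difference of 0.29. Of all tested genes 32.3% were higher and 25.9% were lower, with a median of 0.11. Read against these shares, the count of higher members lies at the background. In EGFP+ against ALL tubules 21 members were higher and 7 lower, with a median of 0.26, beside 30.3% of all genes higher and 24.9% lower and a median of 0.09. Both comparisons share the EGFP+ arrays. In ALL against EGFP- tubules limma called 0 of 59 members, beside 1.39% of all genes in either direction, and 1 member (1.69%) had an unadjusted p under 0.05, as had 4.14% of all genes. With mouse as a replicate block that comparison called 1 member, Ppp2r2b, as higher, beside 2.03% of all genes. Of the 28 members called in EGFP+ against EGFP-, 27 kept their sign in 4 of 4 mice and 27 within all 3 array slides, the exception being Ppp1r3c in both counts. A slide holds different mice and sexes. The differences by class show most subunits near 0 and a few far from it.

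**Figure D1:**
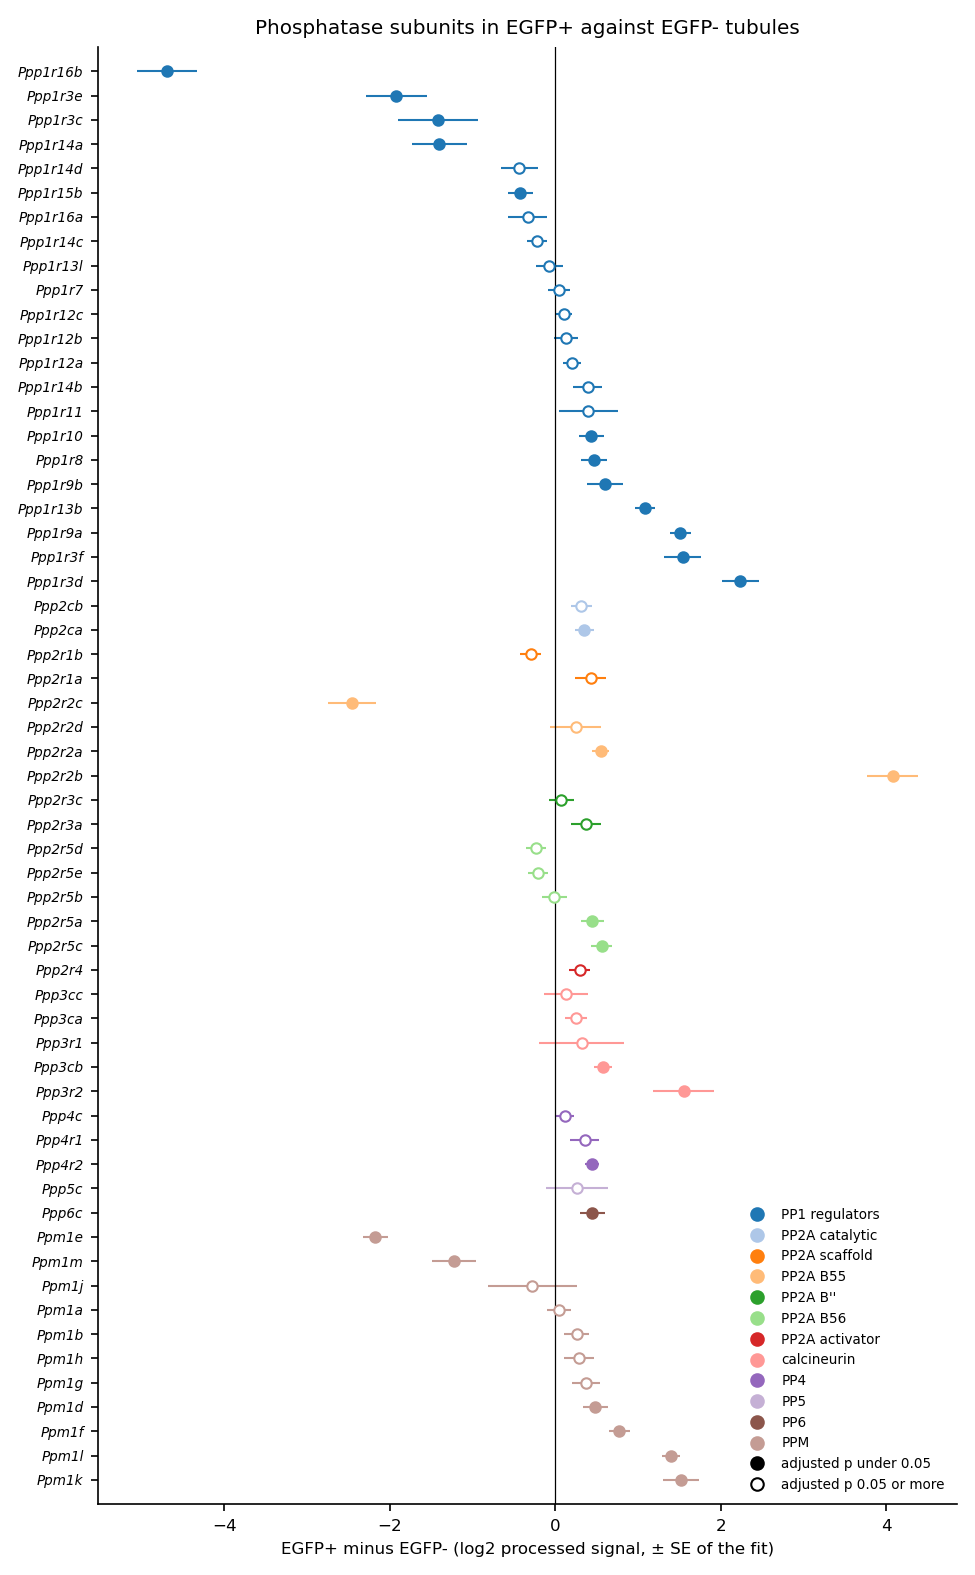
Log2 difference of EGFP+ minus EGFP- for the 59 tested members (x axis), grouped and coloured by phosphatase class, with bars for the SE of the fit and filled points for adjusted p under 0.05. Most members lie within 1 of 0, while Ppp2r2b reaches 4.07 and Ppp1r16b -4.69.

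Among the catalytic subunits of PP2A, PP4, PP5 and PP6, Ppp2ca and Ppp6c were higher in EGFP+ than in EGFP-, each by less than 0.5 on the log2 scale, and Ppp2cb, Ppp4c and Ppp5c did not pass the test. Ppp2ca, the alpha catalytic subunit of PP2A, stood at 3.84, 3.76, 3.82 and 3.60 in the EGFP+ tubules of mice 1 to 4, at 3.28, 3.57, 3.41 and 3.45 in ALL, and at 3.35, 3.54, 3.21 and 3.51 in EGFP-. Every EGFP+ value lay above every EGFP- value, and the difference was 0.35 ± 0.11, which is 1.28-fold (95% confidence interval 1.08 to 1.51, adjusted p = 0.0168). That call was lost without mouse 1 (adjusted p = 0.0925) and without mouse 3 (0.136). Ppp2cb, the beta catalytic subunit, was at 2.50, 2.26, 2.47 and 2.03 in EGFP+, at 1.81, 2.0, 2.23 and 1.90 in ALL, and at 2.04, 2.04, 1.97 and 1.95 in EGFP-. Mouse 4 overlapped the EGFP- values, and the difference of 0.31 ± 0.13 did not pass the test (adjusted p = 0.0544). It passed with the replicate block (adjusted p = 0.0390). Against ALL both PP2A catalytic subunits were higher, each by 0.33.

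Ppp6c, the catalytic subunit of PP6, had 2.44, 2.74, 2.89 and 2.70 in EGFP+, 2.08, 2.43, 2.16 and 2.45 in ALL, and 2.11, 2.38, 2.01 and 2.50 in EGFP-. The ranges of EGFP+ and EGFP- overlapped, since mouse 1 in EGFP+ was below mouse 4 in EGFP-, but each mouse was higher in EGFP+ (0.45 ± 0.15, 1.36-fold, adjusted p = 0.0218). Without mouse 2 or mouse 3 the adjusted p was 0.0668 and 0.170. For Ppp4c, the catalytic subunit of PP4, the EGFP+ levels were 1.43, 1.16, 1.33 and 1.15, those of ALL 1.10, 1.27, 1.17 and 1.0, and those of EGFP- 1.10, 1.33, 1.02 and 1.15. The fractions overlapped and the difference was 0.12 ± 0.11 (adjusted p = 0.392). Ppp4r2, a regulatory subunit that anchors PP4, was higher by 0.44 ± 0.09 (adjusted p = 0.00116), whereas Ppp4r1, another PP4 regulator, had 0.35 ± 0.18 (adjusted p = 0.116).

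Ppp5c, a phosphatase with tetratricopeptide repeats that binds the chaperone HSP90, was at 2.54, 2.29, 0.71 and 1.90 in EGFP+, at 1.75, 1.36, 1.16 and 2.11 in ALL and at 1.57, 1.09, 1.64 and 2.11 in EGFP-. The EGFP+ value of mouse 3 was the lowest of all 12, and the difference of 0.26 ± 0.37 did not pass the test (adjusted p = 0.579). A dimmer probe of Ppp5c differed by 1.0, and the mean of both probes differed by 0.63 (adjusted p = 0.00526). The result for PP5 therefore depended on the probe.

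Calcineurin subunits were higher or did not pass the test. The class median was 0.32, beside 0.11 over all genes. In the class 2 of 5 members were higher and 0 lower, beside 32.3% and 25.9% of all genes. The higher ones were Ppp3cb and the dim Ppp3r2, which passed the background filter only through EGFP+ and ALL arrays. Ppp3cb, the beta catalytic subunit of calcineurin, was at 2.63, 2.67, 2.97 and 2.60 in EGFP+, at 2.10, 2.22, 2.10 and 2.12 in ALL and at 2.30, 2.16, 1.95 and 2.15 in EGFP-. The EGFP+ range lay above both others, by 0.58 ± 0.11 against EGFP- (1.49-fold, 1.25 to 1.77, adjusted p = 0.000956) and by 0.58 ± 0.11 against ALL (adjusted p = 0.000970). In the fit over single probes a dimmer Ppp3cb probe was called (0.62). Other dimmer probes, at 0.23 (adjusted p = 0.125) and 0.36 (0.226), were not. Ppp3ca, the alpha catalytic subunit, had 3.13, 3.16, 3.30 and 3.25 in EGFP+, 2.73, 3.12, 2.73 and 3.07 in ALL and 2.81, 3.05, 2.77 and 3.20 in EGFP-. The EGFP- value of mouse 4 lay within the EGFP+ range, and the difference of 0.25 ± 0.13 missed the threshold (adjusted p = 0.133). Under quantile normalization it passed (0.28, adjusted p = 0.0418).

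Ppp3cc, the gamma catalytic subunit, was nearly the same in all EGFP+ arrays, at 0.60, 0.68, 0.60 and 0.55, but at 0.23, 0.75, -0.07 and 0.86 in ALL and at 0.17, 0.75, -0.08 and 1.08 in EGFP-. The 2 male mice were the high ones outside the DCT fraction, and the mean difference was 0.13 ± 0.26 (adjusted p = 0.702). Ppp3r1, the widely expressed calcineurin B subunit that binds calcium, was at -0.54, -1.0, -3.09 and -1.62 in EGFP+, at -1.06, -2.38, -2.33 and -2.19 in ALL and at -1.48, -2.73, -1.64 and -1.67 in EGFP-. The EGFP+ value of mouse 3 was the lowest of all 12, and the difference was 0.32 ± 0.51 (adjusted p = 0.618). Its other 2 probes, both dimmer, differed by 0.87 and 0.91 and were called in the fit over single probes.

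Ppp3r2, the second calcineurin B gene, known from testis, was dim, at -4.12, -4.94, -5.11 and -4.78 in EGFP+, at -5.10, -5.42, -5.88 and -6.39 in ALL and at -5.58, -5.81, -7.00 and -6.77 in EGFP-. It was well above background on 3 EGFP+, 2 ALL and 0 EGFP- arrays, so only a bound holds, at least 1.48-fold higher in EGFP+. The adjusted p of 0.00354 in the limma fit belongs to the fitted difference, not to this bound. Since Ppp3r2 passed the background filter only through EGFP+ and ALL, its call is no separate support. Without mouse 1 or mouse 2 it no longer passed the background filter and was not tested.

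**Figure D2:**
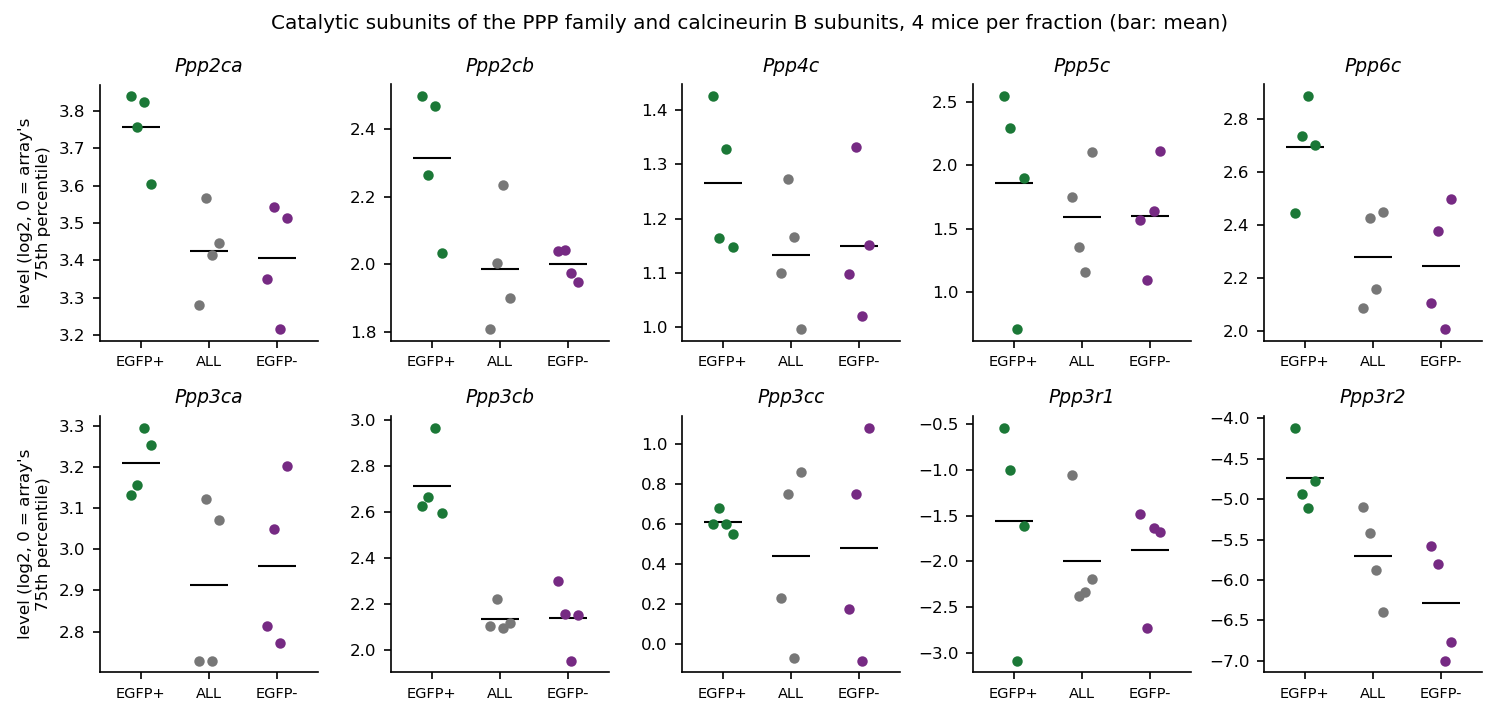
Levels (log2, 0 is the array's 75th percentile) of the catalytic subunits and the calcineurin B subunits in EGFP+, ALL and EGFP- tubules, with a point per mouse in the order 1 to 4 and a bar at the mean; each panel has its own scale. Ppp3cb has every EGFP+ point at 2.60 or above and every other point at or below 2.30, while Ppp3cc, Ppp3r1 and Ppp5c overlap.

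Genes listed with calcineurin also went both ways, with a median of 0.17. Of 18 tested, 5 were higher, 5 lower and 8 did not pass the test, beside 32.3% of all genes higher and 25.9% lower. The higher ones were Akap5, a scaffold that anchors calcineurin (1.82), Rcan3 (1.2), the osmotic stress factor Nfat5 (0.64), the calmodulin gene Calm2 (0.58) and the kinase Dyrk1a (0.37). The lower ones were Nfatc4 (-1.49), the calmodulin gene Calm3 (-1.0), the calcineurin regulators Rcan2 (-1.0) and Rcan1 (-0.72), and Fkbp1a, the binding protein of tacrolimus (-0.48).

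Regulatory B subunits of PP2A held the largest excess of the set. Ppp2r2b, the beta subunit of the B55 family, best known from brain, was at 2.53, 2.24, 2.54 and 2.35 in EGFP+, at -0.02, -0.67, -0.41 and -1.19 in ALL and at -0.92, -1.79, -1.49 and -2.44 in EGFP-. The EGFP+ values lay far above both other fractions, with a level of 2.41 ± 0.14, and in each mouse ALL lay between EGFP+ and EGFP-. It was 16.8-fold higher than in EGFP- (10.6 to 26.8, log2 difference 4.07 ± 0.31, adjusted p = 3.56e-07) and 7.93-fold higher than in ALL (2.99 ± 0.31, adjusted p = 6.14e-06). ALL exceeded EGFP- by 1.09 (adjusted p = 0.202), and with mouse as a replicate block that step passed the threshold (1.09 ± 0.18, adjusted p = 0.0181). A second tested probe of Ppp2r2b differed by 4.19, and 2 further probes were not well above background on any array.

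The profile of Ppp2r2b over the 12 arrays was most like those of Efhd1, Slc1a5 and Ap1m2, with Pearson correlations of 0.997 each, given as a description over arrays that share mice and fractions. These genes differed by 3.13, 3.37 and 3.60 between EGFP+ and EGFP-. Ppp2r2a, the widely expressed alpha subunit of B55, was higher by 0.55 ± 0.10 (1.46-fold, adjusted p = 0.000806), and Ppp2r2d, the delta subunit, had 0.24 ± 0.31 (adjusted p = 0.521).

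Ppp2r2c, the gamma subunit of B55, was at -7.03, -6.67, -7.20 and -7.34 in EGFP+, at -4.40, -4.29, -4.92 and -5.53 in ALL and at -4.00, -4.51, -4.98 and -4.94 in EGFP-. No EGFP+ array was well above background, and 3 arrays of each other fraction were, so it was at least 1.57-fold lower in EGFP+. Its adjusted p (1.95e-05) is that of the fitted difference, and it passed the background filter only through ALL and EGFP-. With the normexp background the sign turned to 0.38 (adjusted p = 0.560), so its direction depended on the background correction. The 4 B55 genes therefore showed 2 higher, beside 32.3% of all genes, and 1 not passing, with values up to 4.07. The call of Ppp2r2c as lower (-2.46) is no separate support for its direction.

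In the B56 family, which guides PP2A to many signalling and mitotic substrates, Ppp2r5c was higher by 0.56 ± 0.12 (adjusted p = 0.00230) and Ppp2r5a by 0.45 ± 0.14 (adjusted p = 0.0147). The latter was not called without mouse 1 or without mouse 2. Ppp2r5b (-0.01 ± 0.15), Ppp2r5d (-0.23 ± 0.12) and Ppp2r5e (-0.21 ± 0.12) did not pass the test. Neither scaffold gene passed, with 0.43 ± 0.19 for Ppp2r1a and -0.30 ± 0.12 for Ppp2r1b, although the EGFP+ and EGFP- values of each did not overlap. The B'' genes Ppp2r3a (0.37) and Ppp2r3c (0.07) and the activator Ppp2r4, now named Ptpa (0.29), did not pass either. With mouse as a replicate block Ppp2r1a (adjusted p = 0.0285), Ppp2r4 (0.0289) and Ppp2r3a (0.0406) passed.

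Among 23 partner genes of PP2A, PP4 and PP6 outside the set, 5 were higher, 2 lower and 16 did not pass, with a median of 0.08. The shares over all genes were 32.3% higher and 25.9% lower. Ankrd28, a PP6 scaffold, was higher by 1.05, and its relative Ankrd44 was lower by a log2 difference of -1.72. The methylesterase Ppme1 (0.62), Ppp6r3 (0.48), Tiprl (0.39) and the PP2A inhibitor Set (0.37) were higher, and Strip2 was lower (-0.34).

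PP1 regulators, the largest class, ran from -4.69 to 2.23, with a median of 0.11. Of 22 tested members 7 were higher, 5 lower and 10 did not pass, beside 32.3% of all genes higher and 25.9% lower. Among the lower ones, Ppp1r3e and Ppp1r14a passed the background filter only through ALL and EGFP-. The glycogen-targeting subunits, which bring PP1 to glycogen, differed in sign, but the calls of the lower ones depended on the processing. Ppp1r3d, also called R6, was at 0.37, 0.36, -0.10 and 0.19 in EGFP+, at -1.31, -1.76, -1.63 and -2.36 in ALL and at -1.74, -2.23, -1.79 and -2.36 in EGFP-. All EGFP+ values were above all others, by 2.23 ± 0.22 against EGFP- (4.70-fold, 3.34 to 6.62, adjusted p = 4.35e-06) and by 1.97 ± 0.22 against ALL (adjusted p = 1.51e-05). Its probe lies at chr2:178340697-178340756 in the mm8 build.

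Ppp1r3f, another glycogen-targeting subunit, was dim at -3.48, -3.92, -3.96 and -4.10 in EGFP+, -4.65, -5.05, -5.25 and -5.65 in ALL and -5.02, -5.34, -5.49 and -5.76 in EGFP-. The EGFP+ arrays were all well above background and 1 EGFP- array was, with 2.90-fold higher levels in EGFP+ (2.06 to 4.09, adjusted p = 9.92e-05). Ppp1r3e went the other way, at -7.22, -5.91, -5.79 and -7.02 in EGFP+, -5.14, -4.37, -4.77 and -4.10 in ALL and -5.13, -4.39, -4.73 and -4.01 in EGFP-. No EGFP+ array was well above background, and it was at least 1.61-fold lower there. Its adjusted p (0.000803) is that of the fitted difference, and it passed the background filter only through ALL and EGFP-. With the normexp background the difference turned to 0.57 (adjusted p = 0.382). Ppp1r3c, the subunit also called PTG, had a difference of -1.41 ± 0.48 (adjusted p = 0.0254), lower in 3 of 4 mice, with mouse 4 at -3.49 in EGFP+ and -4.22 in EGFP-. Leaving out mouse 1, 2 or 3 ended that call, as did the normexp background. In EGFP+ 2 arrays were well above background for Ppp1r3c.

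Ppp1r9a, the actin-binding scaffold neurabin, was at 2.04, 2.07, 2.25 and 1.97 in EGFP+, 1.08, 0.74, 0.82 and 0.69 in ALL and 0.49, 0.39, 0.57 and 0.82 in EGFP-. The groups did not overlap, and EGFP+ was 2.85-fold above EGFP- (2.35 to 3.46, 1.51 ± 0.13, adjusted p = 9.70e-07). Its relative spinophilin, Ppp1r9b, was higher by 0.60 ± 0.22 (adjusted p = 0.0351), a call lost without mouse 1, 2 or 3.

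Ppp1r13b, the p53-binding protein ASPP1, was at 0.23, 0.17, 0.27 and 0.50 in EGFP+, -0.56, -0.63, -0.61 and -0.82 in ALL and -0.68, -0.70, -0.77 and -1.02 in EGFP-. Every EGFP+ array was above 0 and every other one below it, a 2.12-fold difference (1.78 to 2.53, adjusted p = 7.44e-06). Ppp1r13l, the inhibitory relative iASPP, had -0.07 ± 0.16 (adjusted p = 0.722). The nuclear regulators Ppp1r8 (NIPP1, 0.46 ± 0.16) and Ppp1r10 (PNUTS, 0.44 ± 0.15) were higher with adjusted p of 0.0247 and 0.0303, and both calls were lost without mouse 2 or mouse 4, that of Ppp1r8 also without mouse 1.

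Ppp1r16b had the largest deficit of the set. It encodes TIMAP, a membrane-anchored PP1 subunit known from endothelial cells. Its levels were -3.38, -2.05, -3.25 and -2.24 in EGFP+, 1.34, 2.19, 1.41 and 2.19 in ALL and 1.66, 2.39, 1.43 and 2.37 in EGFP-. The EGFP+ arrays lay far below the others, 25.9-fold under EGFP- (15 to 44.6, log2 difference -4.69 ± 0.36, adjusted p = 4.12e-07) and 22.8-fold under ALL (adjusted p = 7.55e-07), and in every fraction the 2 male mice were above the 2 female mice. Its other 2 probes differed by -5.31 and -3.69. The main probe lies at chr2:158457175-158457234 in mm8.

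Markers of endothelium, proximal tubule and podocytes were also low in EGFP+ arrays. Other lists were less reduced. The sum of the 4 thick ascending limb markers with values on all arrays was 61.0% to 79.5% of the EGFP- mean. That of 4 intercalated cell markers was 52.4% to 73.4%. In EGFP+ arrays the summed signal of 7 endothelial markers was 6.49% to 8.99% of the EGFP- mean, that of the 4 proximal tubule markers with values on all arrays 2.16% to 4.79%, and that of 6 podocyte markers 0.852% to 2.80%; none of these sums was 0. The endothelial sum in EGFP- arrays was 129%, 81.2%, 113% and 77.3% of its mean in mice 1 to 4. The podocyte sum was 135%, 84.1%, 114% and 67.1%, and the proximal tubule sum 95.4%, 90.2%, 115% and 99.6%. The part of these cell types in the difference was not tested. The profile of Ppp1r16b over the 12 arrays was most like those of St8sia6, B3galt5 and Aspa, with Pearson correlations of 0.999 each, again a description over arrays that share mice.

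Ppp1r14a, the smooth muscle inhibitor of myosin phosphatase called CPI-17, was at -6.05, -6.30, -5.25 and -5.39 in EGFP+, -4.87, -4.46, -3.96 and -5.27 in ALL and -4.16, -5.04, -4.09 and -4.08 in EGFP-. No EGFP+ array was well above background, and it was at least 1.88-fold lower. Its adjusted p (0.00334) is that of the fitted difference, and it passed the background filter only through ALL and EGFP-. With the normexp background the difference turned to 0.50 (adjusted p = 0.392). The summed signal of 7 smooth muscle and mesangial markers in EGFP+ was 14% to 21.0% of the EGFP- mean, and its part in the result was not tested. The related inhibitors Ppp1r14b (0.39 ± 0.18), Ppp1r14c (-0.22 ± 0.12) and Ppp1r14d (-0.43 ± 0.22) did not pass. With mouse as a replicate block they did, with adjusted p of 0.00861, 0.0352 and 0.0242.

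Ppp1r15b, or CReP, which lets PP1 act on the translation factor eIF2 alpha, was at 1.93, 1.93, 1.86 and 2.21 in EGFP+, 2.23, 2.47, 1.99 and 2.64 in ALL and 2.27, 2.31, 2.42 and 2.61 in EGFP-. The EGFP+ values were all below the EGFP- values, by a log2 difference of -0.42 ± 0.15 (1.34-fold, adjusted p = 0.0294). The adjusted p was 0.0814, 0.0949 and 0.0879 without mouse 1, 2 or 3, and 0.274 when arrays were centred on the median. The myosin phosphatase targeting subunits Ppp1r12a (0.20 ± 0.11), Ppp1r12b (0.13 ± 0.15) and Ppp1r12c (0.10 ± 0.09), the membrane-anchored Ppp1r16a (-0.33 ± 0.24), and the PP1 regulators Ppp1r7 (0.04 ± 0.14) and Ppp1r11 (0.40 ± 0.35) did not pass the test.

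The PPM family had 4 of 11 members higher, 2 lower and 5 not passing, with a median of 0.29. These counts stand beside 32.3% of all genes higher and 25.9% lower. Ppm1k, the mitochondrial phosphatase that activates breakdown of branched-chain amino acids, was at 1.08, 0.97, 1.13 and 1.05 in EGFP+, 0.01, -0.47, -0.21 and -0.77 in ALL and 0.00, -0.73, -0.18 and -0.92 in EGFP-. The 4 EGFP+ values were close together and above all others, 2.86-fold over EGFP- (2.06 to 3.96, 1.51 ± 0.22, adjusted p = 8.13e-05). Its probe lies at chr6:57436474-57436533 in mm8. Ppm1l, an enzyme that restrains stress-activated kinase cascades, was at 3.01, 2.96, 3.13 and 3.15 in EGFP+, 1.85, 1.84, 1.74 and 1.61 in ALL and 1.64, 1.89, 1.5 and 1.66 in EGFP-. The groups did not overlap, with EGFP+ 2.63-fold above EGFP- (2.22 to 3.1, adjusted p = 5.27e-07). All tested probes of Ppm1k and of Ppm1l were called in the same direction.

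Ppm1e and Ppm1f, both of which act on PAK and CaM kinases, moved apart. Ppm1e was at -4.98, -4.91, -4.70 and -4.30 in EGFP+, -2.58, -2.66, -2.69 and -2.99 in ALL and -2.51, -2.51, -2.55 and -2.63 in EGFP-. The EGFP+ arrays were lowest without overlap (4.51-fold, 3.58 to 5.67, -2.17 ± 0.15, adjusted p = 1.85e-07), and 3 of them were well above background. With the normexp background the difference shrank to -0.44 (adjusted p = 0.340). Ppm1f was higher by 0.77 ± 0.13 (1.71-fold, adjusted p = 0.000290).

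Ppm1m, a PP2C enzyme, was at 1.06, 0.91, 1.49 and 1.11 in EGFP+, 1.81, 2.75, 1.99 and 2.63 in ALL and 1.92, 2.81, 2.01 and 2.72 in EGFP-. It was lower in EGFP+ without overlap (2.33-fold, 1.56 to 3.49, -1.22 ± 0.27, adjusted p = 0.00193). Ppm1d, the p53-induced phosphatase Wip1, was higher by 0.48 ± 0.15 (adjusted p = 0.0144), not called without mouse 1 or mouse 2. Ppm1a (0.04 ± 0.14), Ppm1b (0.26 ± 0.15), Ppm1g (0.37 ± 0.17), Ppm1h (0.29 ± 0.18) and Ppm1j (-0.28 ± 0.53) did not pass. Against ALL Ppm1g passed as well (0.45, adjusted p = 0.0423).

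Among 6 other tested genes listed with the metal-dependent phosphatases the median was 0.38, beside 0.11 over all genes. In this list 3 were higher and 1 was lower, beside 32.3% and 25.9% of all genes. These were the mitochondrial enzymes Pptc7 (1.46) and Pdp1 (1.2), the latter an activator of pyruvate dehydrogenase, the TAK1 partner Tab1 (0.52), and Phlpp2 (-1.35), which acts on AKT. Of 6 tested genes of the kinase pathway that activates the sodium chloride cotransporter, 4 were higher, beside 32.3% of all genes. They were Wnk1 (4.21), Wnk4 (3.43), Stk39 (3.76) and Klhl3 (5.22), an adaptor that targets WNK kinases for degradation. Klhl3 is also on the DCT marker list. The difference of Ppp2r2b, at 4.07, lay between those of Stk39 and Wnk1.

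**Figure D3:**
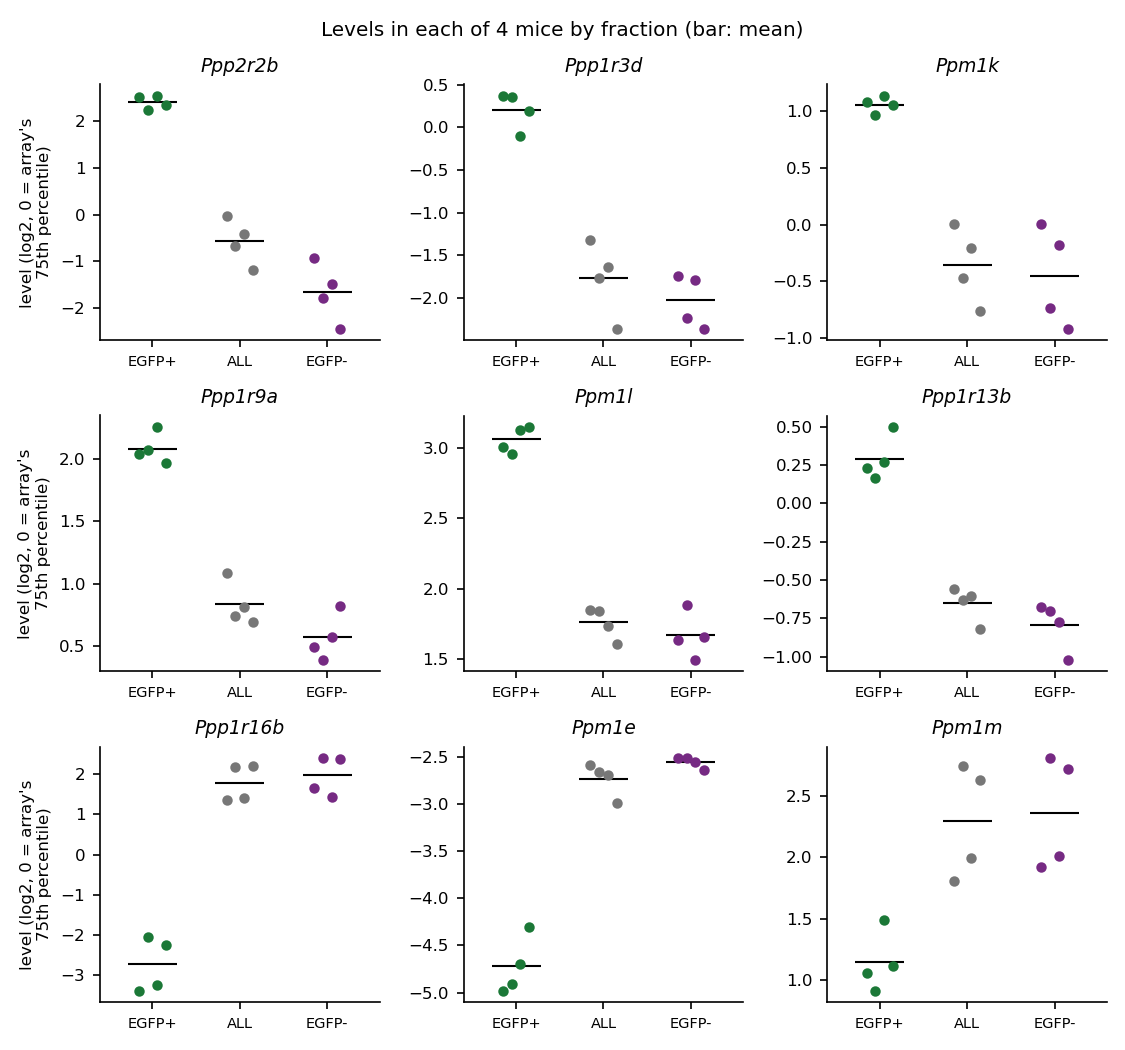
Levels (log2, 0 is the array's 75th percentile) in EGFP+, ALL and EGFP- tubules for 6 members that were higher and 3 that were lower in EGFP+, with a point per mouse and a bar at the mean; each panel has its own scale. The EGFP+ points do not overlap those of EGFP- in any panel, and the ALL points lie near EGFP- except for Ppp2r2b, where they lie between.

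Promoter sequences are shown for a glycogen subunit and a mitochondrial enzyme that were higher in EGFP+, and for the most depleted subunit. They were chosen among called members well above background on all arrays. Ppp2r2b, the member of largest excess, was left out of the choice, so the high end of the set is not shown. Ppm1m was chosen as a second lower member and is not printed. Each is the 250 bases before the start of the gene in the RefSeq annotation of GRCm38.p6, 5′ to 3′ on the gene's strand, with each CG dinucleotide in capitals. They are Ppp1r3d at chr2:178414464-178414713 (minus strand), Ppm1k at chr6:57535488-57535737 (minus strand) and the first of 2 listed starts of Ppp1r16b at chr2:158666483-158666732 (plus strand).
Ppp1r3d: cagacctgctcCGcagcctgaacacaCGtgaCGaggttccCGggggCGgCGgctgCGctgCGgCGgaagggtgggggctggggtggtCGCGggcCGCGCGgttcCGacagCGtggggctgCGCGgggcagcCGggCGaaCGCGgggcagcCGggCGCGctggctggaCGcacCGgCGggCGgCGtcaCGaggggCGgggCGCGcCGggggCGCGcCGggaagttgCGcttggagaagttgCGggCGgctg
Ppm1k: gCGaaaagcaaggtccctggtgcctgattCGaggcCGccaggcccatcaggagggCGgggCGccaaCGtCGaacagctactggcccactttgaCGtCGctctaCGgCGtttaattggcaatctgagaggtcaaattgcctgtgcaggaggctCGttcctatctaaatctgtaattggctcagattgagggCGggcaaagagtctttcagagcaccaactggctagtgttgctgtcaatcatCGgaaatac
Ppp1r16b: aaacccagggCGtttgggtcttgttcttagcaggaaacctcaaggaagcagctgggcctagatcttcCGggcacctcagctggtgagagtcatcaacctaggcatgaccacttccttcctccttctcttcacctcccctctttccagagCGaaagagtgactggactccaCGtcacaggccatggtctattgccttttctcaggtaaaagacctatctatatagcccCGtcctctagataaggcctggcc

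The Ppp1r3d window held 41 CG, the Ppm1k window 14 and the Ppp1r16b window 5, while the second listed start of Ppp1r16b held 7. The first and second listed starts of Ppm1m, also lower in EGFP+, held 14 and 31. The median over 32841 mouse promoters of the same length was 6 CG, a figure that includes non-coding genes. The 21 promoters found for members higher in EGFP+ (17 genes) had a median of 22 CG, the 8 for members lower (6 genes) had 19, and all 64 found for members (51 genes) had 14. On either strand, the nuclear receptor half-site AGGTCA was found in 4.76% of the promoters of higher members, 0% of those of lower members and 14% of all promoters. The corresponding shares were 4.76%, 0% and 6.43% for the HNF1 half-site GTTAAT, 33.3%, 12.5% and 33.9% for the CCAAT box, and 9.52%, 0% and 12.4% for TATAAA. Ppm1k held 1 AGGTCA and 2 CCAAT, and the windows shown for Ppp1r3d and Ppp1r16b held none of these motifs. These matches describe the letters only.

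Probes of one gene did not always lead to the same call. Of 37 members with several tested probes, all probes were called for 12 and none for 9 in a fit over 25819 single probes. In 10 members only a probe other than the brightest was called, namely Ppm1a, Ppm1h, Ppp1r12a, Ppp1r12b, Ppp1r14b, Ppp2cb, Ppp2r1b, Ppp2r3a, Ppp3r1 and Ppp5c. The dimmest probe of Ppm1h differed by 1.39, against 0.29 for the brightest, and the dimmest of Ppp2r1b by -1.18, against -0.30. When each gene was given the mean of its probes, 26 members were higher and 9 lower, beside 33.2% and 25.7% of all genes. In 4 members only the brightest probe was called, namely Ppp1r10, Ppp2ca, Ppp2r5a and Ppp4r2. In 2 members, Ppp2r5c and Ppp3cb, the brightest and some of the other probes were called. In no member did the brightest probe and a called other probe have opposite signs.

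**Figure D4:**
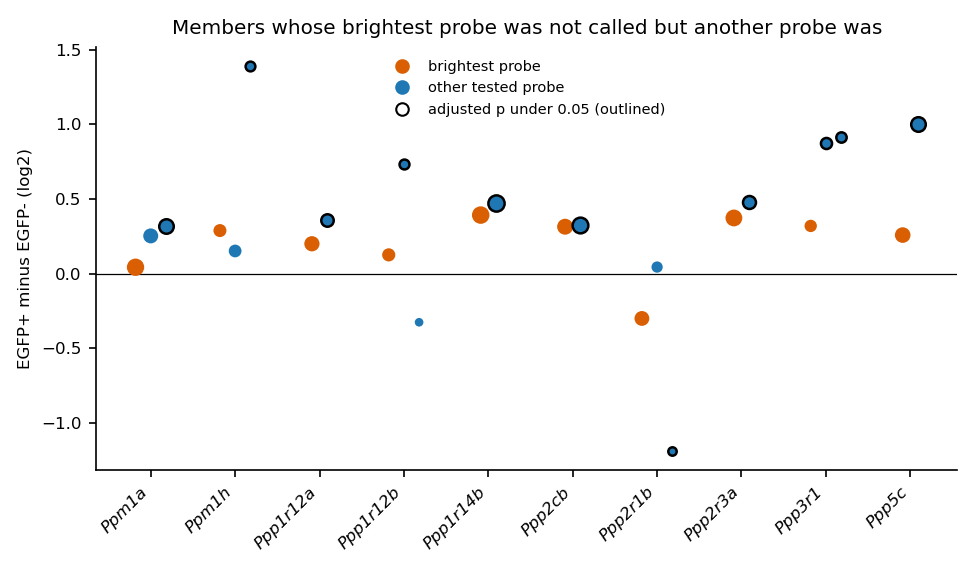
Log2 difference of EGFP+ minus EGFP- for each tested probe of the 10 members whose brightest probe was not called while another was; orange marks the brightest probe, blue the others, an outline an adjusted p under 0.05, and larger points a higher mean level. Ppm1h spans 0.15 to 1.39 and Ppp2r1b -1.18 to 0.04.

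Sex was compared on the mean of each mouse over its 3 fractions, 2 males against 2 females. No member passed the threshold (0 of 59), beside 1.27% of all genes, and 13 members (22.0%) had an unadjusted p under 0.05, as had 20.7% of all genes. Ppp1r16b came nearest, with males higher by 0.94 (adjusted p = 0.0523), and it passed under 5 other settings, among them the mouse as a random replicate block (adjusted p = 0.000996). Ppm1j followed, at 0.93 (adjusted p = 0.0800), and Ppp2r2d, at 0.77 (adjusted p = 0.117). Ppm1j passed with median centring (adjusted p = 0.0224), normexp (0.0135) and the strict background filter (0.0353), and Ppp2r2d with normexp (0.0295) and the random replicate block (0.00675).

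To ask whether EGFP+ against EGFP- depended on sex, the difference within each mouse was compared between 2 males and 2 females. Limma called 0 members and 0% of all genes, and 8 members (13.6%) had an unadjusted p under 0.05, as had 12% of all genes. Ppm1j, a PP2C enzyme known from testis, was at -3.19, -3.56, -2.81 and -3.62 in EGFP+, -3.78, -2.28, -3.66 and -2.11 in ALL and -4.10, -2.01, -3.82 and -2.15 in EGFP-. Both females (mice 1 and 3) were higher in EGFP+, by 0.91 and 1.01, and both males were lower, by a log2 difference of -1.55 and -1.47. The sexes differed by -2.47 in this difference (adjusted p = 0.0705), short of the threshold.

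**Figure D5:**
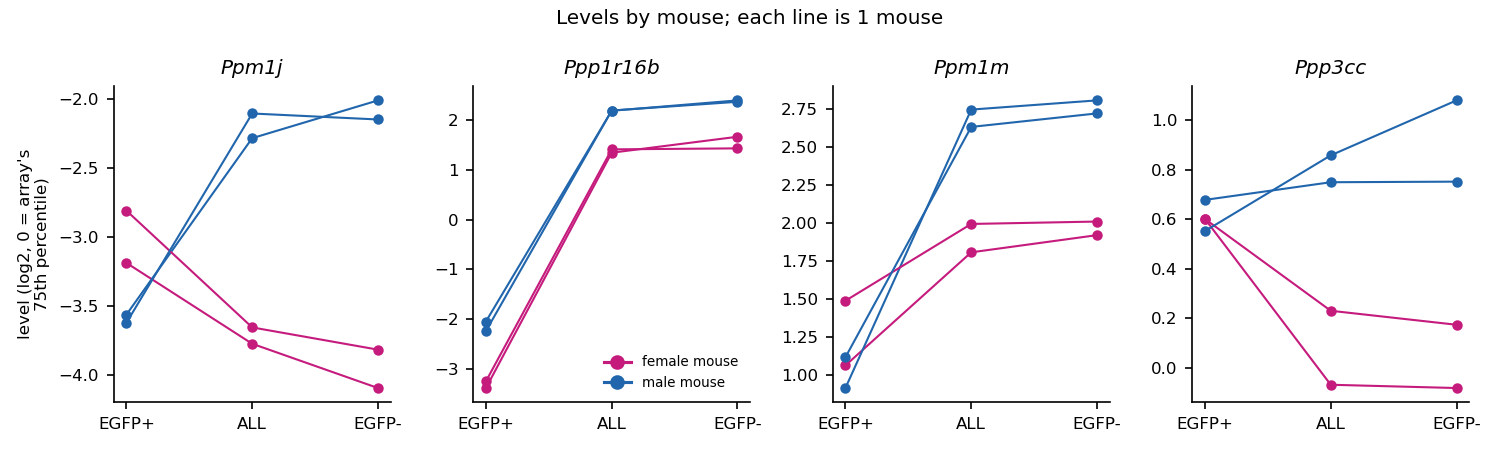
Levels (log2, 0 is the array's 75th percentile) of Ppm1j, Ppp1r16b, Ppm1m and Ppp3cc in EGFP+, ALL and EGFP- tubules, with a line per mouse, pink for the 2 females and blue for the 2 males; each panel has its own scale. The sexes are apart in ALL and EGFP- tubules in all 4 panels, and in EGFP+ tubules they are close for Ppp3cc, between 0.55 and 0.68.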

How the data were processed

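Per the file headers, the 12 deposited scanner files come from Agilent arrays of design 014868 (mm8 probe positions), read with Feature Extraction 9.5.3.1. They hold the processed signal (a linear intensity, deposited after the software's own background correction) and the mean and background signals, intensities used only for the normexp alternative (offset 50). The authors' value table was not used, since its columns match other fractions than their headings say. Outlier spots (66 to 516 per array) were left out and spots of a probe averaged. Log2 processed signal minus the array's 75th percentile was fitted by lmFit and eBayes of limma 3.58.1 under R 4.3.3, with data.table (1.17.8) and statmod (1.5.0), after a check on simulated data.

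A gene is represented by its brightest probe that was well above background on 4 or more arrays. A fold is only a lower bound where the dimmer fraction had no probe well above background: the bright mean against the mean, per array, of the higher of the lowest well-above-background signal and the probe's own. The members, lists and tests were chosen with earlier results of these data known. Array values are given for the PPP catalytic and calcineurin B subunits, for the 8 largest excesses and up to 8 deficits with 1 sign in 4 of 4 mice, and for PPM members called by at least 1. Ppm1j was named after its values were seen. Fractions with the same number come from 1 mouse, and their deviations correlated between 0.23 and 0.82. Spots left out cost 445 genes a value on 1 or more arrays. The p-values measure the spread over these 4 mice. Alternatives were other scalings, background, filters, probe means, the block of mouse or slide, and leaving out each mouse.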

Additional observations from a re-analysis of the deposited data

Results flagged for a closer look

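In 177 groups of 4 mice, 7 had a mouse far from the others by Dixon's rule, and chance marks about 1 in 20 groups. In EGFP- tubules the low mouse was mouse 4 for Ppp1r11 (-2.56, the nearest at -1.46) and for Ppp1r9b (-2.42, the nearest at -1.83), and mouse 2 for Ppp1r14a (-5.04, the nearest at -4.16) and for Ppp3r1 (-2.73, the nearest at -1.67). In the same fraction mouse 4 was high for Ppp4r2 (2.95, the nearest at 2.84). In ALL tubules mouse 2 was high for Ppp3cb (2.22, the nearest at 2.12) and mouse 1 for Ppp3r1 (-1.06, the nearest at -2.19).

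For 4 members both females had one sign of EGFP+ minus EGFP- and both males the other. The share of all genes with this pattern was not counted, so the count is no result about the members. In the test of the difference itself, 13.6% of members and 12% of all genes had an unadjusted p under 0.05. The difference between the sexes (male minus female) was -2.47 for Ppm1j (adjusted p = 0.0705), -0.86 for Ppp3cc (0.376), -0.69 for Ppp2r5b (0.383) and -0.40 for Ppp4c (0.491), in a limma fit of 4 per-mouse differences, and none passed the threshold.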

How the results depend on the processing

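Of the 28 members called in EGFP+ against EGFP-, 13 kept their call under all 13 alternatives: Ppp2r2b, Ppp1r3d, Ppm1k, Ppp1r9a, Ppm1l, Ppp1r13b, Ppm1f, Ppp3cb, Ppp2r5c, Ppp2r2a, Ppp4r2, Ppp1r16b and Ppm1m. Leaving out each mouse in turn gave 14 to 21 higher and 6 to 8 lower members, and 18 kept their call each time. Of all genes 27.2% to 31.1% were then higher and 22.9% to 24.8% lower. The lower count was 4 with the normexp background and 4 with only probes well above background on all arrays, beside 17.5% and 21.9% of all genes. In EGFP+ against ALL the higher count was 12 with normexp, 13 with no filter on dim probes and 13 to 16 with a mouse left out (13 without mouse 1). The shares of all genes were 19.9%, 17.3% and 24.4% to 28.3%. The lower count was 2 with normexp and 2 with the strict filter, beside 15.2% and 20.9% of all genes. With mouse as a replicate block, EGFP+ against EGFP- had 25 higher and 10 lower, beside 36.6% and 28.8% of all genes. ALL against EGFP- had 1 higher, beside 2.03% of all genes. For sex the count of members was 2 with median centring, 7 with normexp, 2 with the strict filter, 1 with probe means and 3 with mouse as a random replicate block. That block called 4.98% of all genes, with the limit on its p-values given above. For the other settings the share of all genes was not counted, so those counts are no result about the members. Normexp turned Ppp1r14a to 0.50, Ppp1r3e to 0.57 and Ppp2r2c to 0.38 and ended the calls of these and of Ppm1e, Ppp1r3c, Ppp1r8, Ppp1r10, Ppp2ca, Ppp2r5a and Ppp6c; the cause was not tested. With a mouse left out, Ppp3cc ran from -0.058 to 0.35, Ppp3r1 from -0.15 to 0.91 and Ppp5c from -0.056 to 0.66, none of them called. Median centring moved the median of all genes from 0.11 to 0.26 and gave 24 higher and 7 lower members, beside 37% and 22% of all genes. Ppp3r2, Ppp2r2c, Ppp1r3e and Ppp1r14a had no array well above background in the dimmer fraction, so their folds are bounds. They passed the background filter only through the brighter fractions, so their calls are no separate support for the direction.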
